A study of Mus musculus with 2 samples.

Results

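Sox7, Sox17, Sox18, Gja1, Gja4, Gja5 and Bmx are 7 genes used in vascular biology to tell arterial endothelium, and they were taken by name from the 27998 genes that both count files list. All 7 names were found once in each file. The libraries came from the aortas of an 18-month-old (old) and an 8-week-old (young) mouse of the strain C57BL6/J. In both, the aorta was cleared of adventitia, its inner surface was treated with trypsin for 10 min and then scraped, and 8700 cells were loaded for a target of 5000, per the labels. Single cells were captured in droplets and 3′ ends were counted with unique molecular identifiers (UMIs). Each age is 1 library of 1 aorta, with no genotype or treatment to compare.

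Sox7, Sox17 and Sox18 make up the SoxF group of transcription factors, which bind DNA through a high-mobility-group box. They take part in forming blood and lymph vessels and in setting arterial identity, partly through Notch signalling. Gja4, Gja5 and Gja1 encode connexins 37, 40 and 43. Connexins assemble into rings in the membrane, and the rings of neighbouring cells dock into gap junctions that pass ions and small molecules along the vessel wall. Connexins 37 and 40 are the main endothelial connexins of arteries, and connexin 43 is found in fibroblasts, smooth muscle and endothelium at sites of disturbed flow. Bmx encodes a kinase of the Tec family that is used as a marker of arterial endothelium in the mouse.

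The genes lie on 7 chromosomes. In the GENCODE vM21 annotation of GRCm38, Sox17 spans chr1:4490931-4497354 and Sox18 spans chr2:181669836-181671640, both on the minus strand. Sox7 spans chr14:63943673-63950732 on the plus strand. Gja5 spans chr3:96904693-97077416 and Gja1 spans chr10:56377330-56402513, both on the plus strand. Gja4 spans chr4:127311421-127314039 and Bmx spans chrX:164192842-164258193, both on the minus strand. No exon of another annotated gene overlaps the last 500 bases of any of the 7 genes, where 3′ reads fall. Of the 50-base stretches searched at the 3′ ends, 0.143% were shared with another gene for Gja1 (Gm38099) and 0 were shared for the other 6.

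RefSeq promoters on GRCm38.p6, from 250 bases before to 50 bases after the gene start, were at hand for Gja4, Gja5, Gja1 and Bmx. The Gja5 window surrounds a start that lies well inside the gene span given above, so it belongs to shorter transcripts and not to the outermost start. They are shown because Gja4, Gja5 and Bmx were high in endothelial cells and Gja1 in fibroblasts. They are written 5′ to 3′ on the strand of the gene, and capitals mark ACAAT or its reverse complement ATTGT, a core of the sites that Sox proteins bind.
Bmx promoter, chrX:164258144-164258443, minus strand: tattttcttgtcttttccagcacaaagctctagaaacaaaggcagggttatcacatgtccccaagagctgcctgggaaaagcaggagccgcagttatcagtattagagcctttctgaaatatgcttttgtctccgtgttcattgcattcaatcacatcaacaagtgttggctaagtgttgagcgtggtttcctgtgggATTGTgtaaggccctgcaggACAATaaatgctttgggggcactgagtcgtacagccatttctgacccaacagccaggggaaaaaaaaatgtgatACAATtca
Gja4 promoter, chr4:127313990-127314289, minus strand: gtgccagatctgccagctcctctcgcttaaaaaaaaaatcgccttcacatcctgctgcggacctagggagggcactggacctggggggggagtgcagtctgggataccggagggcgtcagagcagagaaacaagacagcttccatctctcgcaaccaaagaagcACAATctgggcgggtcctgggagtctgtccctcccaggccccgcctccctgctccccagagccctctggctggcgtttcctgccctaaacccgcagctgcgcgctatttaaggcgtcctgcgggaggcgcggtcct
Gja5 promoter, chr3:97032152-97032451, plus strand: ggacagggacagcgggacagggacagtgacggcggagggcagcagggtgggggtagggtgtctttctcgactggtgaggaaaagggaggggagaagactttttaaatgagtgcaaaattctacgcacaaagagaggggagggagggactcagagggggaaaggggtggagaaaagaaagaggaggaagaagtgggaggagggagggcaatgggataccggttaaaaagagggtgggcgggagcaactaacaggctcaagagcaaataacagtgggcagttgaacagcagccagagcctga
Gja1 promoter, chr10:56377050-56377349, plus strand: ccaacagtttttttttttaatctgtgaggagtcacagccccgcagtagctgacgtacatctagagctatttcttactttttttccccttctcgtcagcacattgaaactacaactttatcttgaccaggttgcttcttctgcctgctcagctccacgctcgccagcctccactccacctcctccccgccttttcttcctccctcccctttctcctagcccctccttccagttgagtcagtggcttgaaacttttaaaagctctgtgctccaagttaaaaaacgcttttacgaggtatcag
The Bmx window held 3 such matches, at 52 and 32 bases before and 42 bases after the gene start. The Gja4 window held 1, at 86 bases before the start, and the Gja5 and Gja1 windows held 0. Among 32851 RefSeq mouse promoters of this length, 31.0% held at least 1 match, 7.98% held 2 or more and 1.87% held 3 or more. The ETS core GGAA or its reverse complement TTCC occurred in all 4 windows (4 matches for Bmx, 3 for Gja5, 3 for Gja1 and 2 for Gja4), none overlapping an ACAAT match, and in 96.0% of all promoters. These matches describe the letters only.

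The old library held 3408 barcodes with a median of 4737 UMIs and the young one 1366 barcodes with a median of 7558.5 UMIs. After filtering, clusters were named by marker genes. The cells like endothelium (EC-like) numbered 2430 in the old library with 14556027 UMIs and 1096 in the young one with 10170050 UMIs. All 11 endothelial markers, Pecam1 and Cdh5 among them, were seen in EC-like cells of both libraries, with a summed level of 11230 CPM (UMIs of a gene per 1000000 UMIs of the group) in old and 11953 CPM in young. The 9 smooth muscle markers summed to 414 CPM in old and 352 CPM in young EC-like cells. Among them the defining gene Myh11 stood at 5.29 CPM in old and 0.197 CPM in young. The 9 fibroblast markers summed to 725 CPM in old and 757 CPM in young EC-like cells. EC-like clusters fell into a subtype marked by Coch, Sost and Adra2a (534 old and 451 young cells) and another marked by Bcan, Isl1 and Frzb (1896 old and 645 young cells). The Coch-marked subtype was thus 22.0% of old and 41.1% of young EC-like cells. Within each subtype, different clusters held most of the cells of each library: in the Coch-marked subtype 533 old cells lay in one cluster and 433 young cells in another, and in the Bcan-marked subtype 1877 old cells in one and 606 young cells in another. The 2 libraries shared 11 cell barcodes.

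Sox7, Sox17, Sox18, Gja4, Gja5 and Bmx were at their highest level in EC-like cells in both libraries, among classes with at least 20 cells (6 classes in old and 2 in young), and Gja1 was at its highest in fibroblast-like cells. EC-like cells held between 96.2% (Sox7) and 97.9% (Sox18) of the UMIs of those 6 genes in old kept cells, and between 97.7% (Sox7) and 99.3% (Sox17) in young kept cells. For Gja1 the share was 5.43% in old and 2.80% in young. The log2 ratio of EC-like over fibroblast-like cells of the same library ran from 3.01 (Sox7) to 3.72 (Bmx) in old and from 3.51 (Sox7) to 5.39 (Sox17) in young. All 6 genes were thus at least 1.5-fold higher in EC-like cells, where 36.1% of all tested genes in old and 29.3% in young were. All ratios and levels carry 95% intervals for counting error only. Since each age is a single library, ages are set side by side without a test, and nothing here measures the spread between animals.

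Bmx was the most counted of the 7 in EC-like cells. Its level was 506 CPM (494 to 518; 7365 UMIs) in old and 626 CPM (611 to 641; 6365 UMIs) in young. Gja4 followed with 457 CPM (446 to 468) in old and 575 CPM (560 to 590) in young. Next came Gja5 with 272 CPM (263 to 280) in old and 438 CPM (425 to 451) in young. Sox17 stood at 198 CPM (190 to 205) in old and 284 CPM (274 to 295) in young. Below it the order changed with the library. Sox7 was at 68.4 CPM (64.2 to 72.8) in old and 82.6 CPM (77.1 to 88.4) in young. Sox18 was at 57.6 CPM (53.8 to 61.7) in old and 223 CPM (214 to 233) in young, so that it ranked under Sox7 in old cells and over it in young cells. UMIs count molecules at their 3′ ends and are not scaled by transcript length, but capture can differ between genes, so the order of genes describes counts rather than amounts of RNA.

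**Figure D1:**
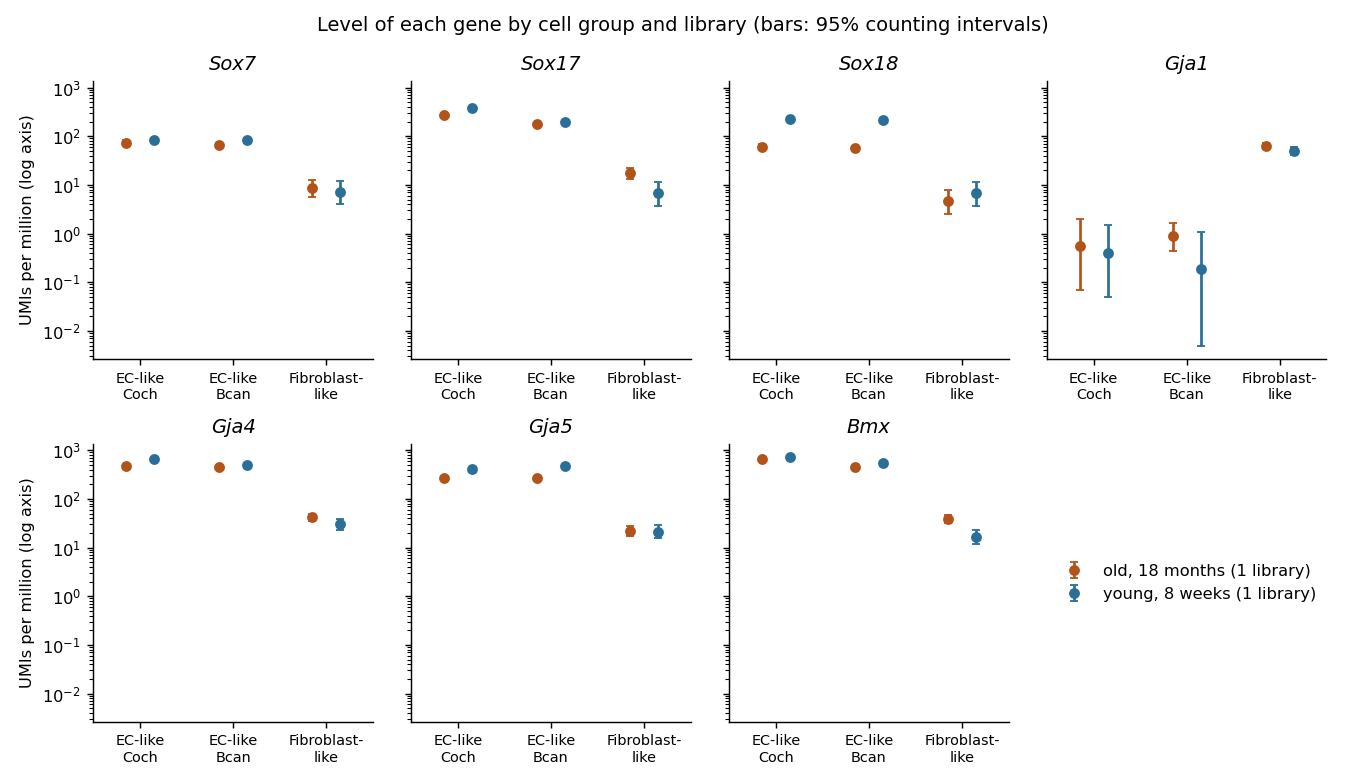
Level of each gene (CPM, log axis) in Coch-marked EC-like, Bcan-marked EC-like and fibroblast-like cells, with old (orange) left of young (blue) and 95% counting intervals as bars. Sox18 sits at 59.2 and 57.1 CPM in the 2 old EC-like subtypes and at 230 and 218 CPM in the young ones, and Gja1 alone is higher in fibroblast-like cells.

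The fibroblast-like cells also held UMIs of the endothelial genes, at low levels. Leaving out Gja1, the level in old fibroblast-like cells was 7.57% to 12.4% of the old EC-like level (median 8.49%), and in young ones 2.38% to 8.76% (median 3.93%). The 11 endothelial markers, measured the same way, stood at a median of 11.7% (9.20% to 29.8%) in old and 4.16% (2.96% to 33.1%) in young fibroblast-like cells. The ranges of the 6 genes and of the markers overlapped in both libraries. Sox7 was above the marker median in old (12.4%, 8.08% to 18.3%, 26 UMIs) and in young (8.76%, 4.88% to 14.5%, 15 UMIs). In young, Gja4 (5.21%, 3.99% to 6.68%) and Gja5 (4.85%, 3.52% to 6.52%) were also above it. Among these values above the marker median, only the interval of Sox7 in young lay clear of it, and the others held it. In old, the intervals of Sox17, Gja4, Gja5 and Bmx lay wholly below the marker median. In young, those of Sox17 and Bmx did. The interval of Sox18 held the marker median in both libraries. Bmx had 38.3 CPM (117 UMIs) in old and 16.9 CPM (35 UMIs) in young fibroblast-like cells. Between ages, Bmx and Sox17 were higher in old than in young fibroblast-like cells by 1.18 (0.62 to 1.77) and 1.36 (0.49 to 2.32) on the log2 scale, 2 of 7 genes, where 8.68% of all tested genes were at least 1.5-fold higher. As much lower were 0 of 7, against 14.6% of tested genes. Of the 11 endothelial markers, 10 were at a higher percentage of their EC-like level in old than in young fibroblast-like cells. The exception was Ptprb, a receptor phosphatase gene, at 14.9% in old and 33.1% in young. The part of these markers in the difference was not tested.

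Gja1, the gene of connexin 43, had 195 UMIs in 576 old and 103 UMIs in 240 young fibroblast-like cells. Its level there was 63.8 CPM (55.2 to 73.4) in old and 49.7 CPM (40.6 to 60.3) in young, a log2 ratio of 0.36 (0.01 to 0.72). In EC-like cells it had 12 UMIs in 2430 old cells and 3 UMIs in 1096 young cells, each in a cell of its own. The log2 ratio of EC-like over fibroblast-like cells was -6.27 (-7.25 to -5.44) in old and -7.40 (-9.70 to -5.81) in young. Gja1 was the 1 gene of 7 that was at least 1.5-fold lower in EC-like cells, where 16.8% and 19.9% of all tested genes in old and young were. Of the 12 old EC-like cells with a Gja1 UMI, 9 also showed at least 3 fibroblast markers, against 36.0% of old EC-like cells without one. Of the 3 young cells 1 did so, against 60.9% of young EC-like cells without one. Cells with and without a Gja1 UMI were not matched in total UMIs for these shares. In 4 bins of old EC-like cells, from fewest to most total UMIs, Gja1 had 0, 2, 5 and 5 UMIs. The part of depth in the marker shares was not tested. With so few Gja1 UMIs, its ratio between ages in EC-like cells was 2.79-fold with an interval of 0.754 to 15.4, too wide to give a direction. The 12 smooth muscle-like cells, all old, held 5 UMIs of Gja1 in 4 cells.

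Between old and young EC-like cells, Sox18 differed most among these genes. It had 839 UMIs in old and 2273 UMIs in young cells, although the old cells held more UMIs in total. The level of Sox18 was thus 3.88-fold (3.58 to 4.20) lower in old, a log2 ratio of -1.96 (-2.07 to -1.84). Gja5 was 1.61-fold (1.55 to 1.69) lower in old, a log2 ratio of -0.69 (-0.75 to -0.63). Sox18 and Gja5 were 2 of 6 genes with enough UMIs (20 in both libraries together) that were at least 1.5-fold lower in old, and 7.18% of 12096 tested genes were. Of the 6, 0 were at least 1.5-fold higher, where 9.21% of tested genes were. The median log2 ratio of all tested genes was 0.07.

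The other 4 genes were lower in old by less than 1.5-fold. Sox17 had a log2 ratio of -0.52 (-0.60 to -0.45), Gja4 of -0.33 (-0.38 to -0.28) and Bmx of -0.31 (-0.36 to -0.26). Sox7 had a log2 ratio of -0.27 (-0.41 to -0.14). All 6 intervals lay below 0.

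Early response genes such as Fos, Junb and Atf3 respond within minutes to stress and handling. Of 15 such genes, 10 were at least 1.5-fold lower in old EC-like cells, against 7.18% of all tested genes, and 0 were as much higher. All 15 log2 ratios were below 0, but the interval of Hspa1b held 0 (-0.06, -0.44 to 0.32). Their summed level was 6131 CPM in old and 10156 CPM in young, and their median log2 ratio was -1.16. That list was chosen after seeing the data. The 9 monocyte or macrophage markers, all higher in old, summed to 136 CPM in old and 33.8 CPM in young EC-like cells, and the 6 erythroid markers to 560 CPM in old and 25.3 CPM in young. The part of the early response genes in the ratios of the 6 genes was not tested. Scaled to the summed endothelial markers, the log2 ratio of Sox18 was -1.87 and that of Gja5 was -0.60. Without the 10% of EC-like cells of each library that carried most markers of other classes, they were -1.96 and -0.68.

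**Figure D2:**
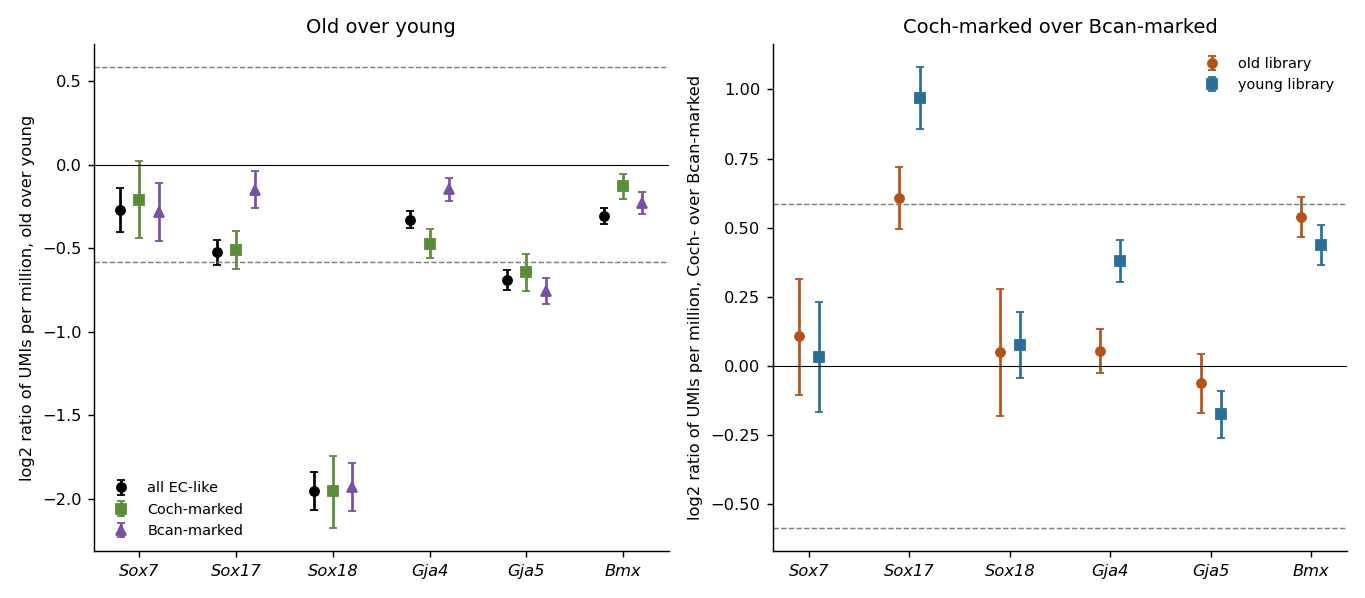
Left, log2 ratio of CPM, old over young, in all EC-like cells (black), Coch-marked cells (green) and Bcan-marked cells (purple). Right, log2 ratio of Coch-marked over Bcan-marked cells in the old (orange) and young (blue) library. Bars are 95% counting intervals and dashed lines mark 1.5-fold. Sox18 lies between -1.96 and -1.93 in all 3 cell sets on the left, and Sox17 and Bmx lie highest on the right.

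Because the subtypes made up different shares of the 2 libraries, the ratios were also taken within each. Sox18 was lower in old by a log2 ratio of -1.96 (-2.18 to -1.74) in Coch-marked cells (211 old and 1126 young UMIs) and of -1.93 (-2.07 to -1.79) in Bcan-marked cells (628 old and 1147 young UMIs). Gja5 had log2 ratios of -0.65 (-0.76 to -0.53) and -0.76 (-0.83 to -0.68) in the Coch-marked and Bcan-marked cells. In each subtype Sox18 and Gja5 were the 2 of 6 genes at least 1.5-fold lower, against 7.48% of tested genes in Coch-marked and 7.01% in Bcan-marked cells. In each, 0 of 6 were as much higher in old, against 8.48% of tested genes in Coch-marked and 9.32% in Bcan-marked cells.

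Sox17 and Gja4 had different ratios in the 2 subtypes. The log2 ratio of Sox17, old over young, was -0.51 (-0.63 to -0.40) in Coch-marked cells and -0.15 (-0.26 to -0.04) in Bcan-marked cells. That of Gja4 was -0.47 (-0.56 to -0.39) in Coch-marked cells and -0.15 (-0.22 to -0.08) in Bcan-marked cells. The intervals of the 2 subtypes did not overlap for either gene, but with 1 library per age the difference between subtypes was not tested. Bmx had log2 ratios of -0.13 (-0.21 to -0.05) in Coch-marked and -0.23 (-0.30 to -0.16) in Bcan-marked cells. For Sox7 they were -0.21 (-0.44 to 0.02) in Coch-marked and -0.28 (-0.46 to -0.11) in Bcan-marked cells, so the interval held 0 in Coch-marked cells.

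The subtype split depended on how cells were filtered and named. When 500 detected genes and at most 5% mitochondrial UMIs were required, a cluster of 589 young and 10 old endothelial cells lost its name, because a neural marker (Ncam1) stood among its top genes. The Bcan-marked ratios then rested on 13 young cells, and were 1.42 for Sox17, 0.17 for Gja4 and 0.22 for Bmx. With that cluster kept, no direction turned. When the 5% of cells with most UMIs were left out, 996 of 1034 young EC-like cells were Coch-marked, and the log2 ratio of Sox17 was -0.03 in Coch-marked and 0.39 in Bcan-marked cells. Bmx then had log2 ratios of 0.05 in Coch-marked and 0.17 in Bcan-marked cells, and Gja4 had 0.07 in Bcan-marked cells. Naming each cell by its own markers made 505 young cells Coch-marked and 324 Bcan-marked, with 122 in neither and 151 tied. In old it made 559 Coch-marked and 1208 Bcan-marked, with 345 in neither and 331 tied. The log2 ratio of Sox17 in Bcan-marked cells was then 0.01. Sox18 and Gja5 stayed lower in old within both subtypes under every alternative run, with Sox18 between -2.08 and -1.71 and Gja5 between -0.82 and -0.37.

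Between the subtypes of a library, Sox17 differed most among the 6 genes. It stood at 267 CPM in Coch-marked and 175 CPM in Bcan-marked cells of the old library, a log2 ratio of 0.61 (0.49 to 0.72). In the young library it stood at 380 CPM in Coch-marked and 194 CPM in Bcan-marked cells, a log2 ratio of 0.97 (0.86 to 1.08). It was the 1 gene of 6 past 1.5-fold in each library, where 4.7% of tested genes in old and 5.46% in young were as much higher in Coch-marked cells. In each library 0 of the 6 were as much lower, where 7.44% of tested genes in old and 7.2% in young were. Bmx was higher in Coch-marked cells too, at 662 CPM against 455 CPM in Bcan-marked cells of the old library (log2 ratio 0.54, 0.47 to 0.61) and at 724 CPM against 535 CPM in those of the young one (0.44, 0.36 to 0.51). The 7 genes were left out of the genes used for clustering, and subtypes were assigned by other genes of the same cells, so these ratios are descriptions.

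Gja4 differed between subtypes in the young library, with 653 CPM in Coch-marked and 502 CPM in Bcan-marked cells (log2 ratio 0.38, 0.30 to 0.45). In the old library it was at 470 CPM in Coch-marked and 453 CPM in Bcan-marked cells, a log2 ratio of 0.05 with an interval that held 0 (-0.03 to 0.13). Gja5 went the other way in the young library, with 411 CPM in Coch-marked and 464 CPM in Bcan-marked cells (log2 ratio -0.17, -0.26 to -0.09), but its ratio was 0.28 when the 5% of cells with most UMIs were left out. In the old library its interval held 0 (-0.06, -0.17 to 0.04). The intervals of Sox7 and Sox18 held 0 in both libraries, and their ratios lay between 0.03 and 0.11.

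As a share of the summed SoxF UMIs in EC-like cells, Sox18 made up 17.8% (16.7% to 18.9%) in old and 37.9% (36.6% to 39.1%) in young. Sox17 made up 61.0% in old and 48.1% in young, and Sox7 21.1% in old and 14.0% in young. The family as a whole stood at 324 CPM (314 to 333) in old and 590 CPM (575 to 605) in young. In Bcan-marked cells Sox18 gave 19.1% of SoxF UMIs in old and 44.1% in young, where it was the largest of the 3. Among the 3 connexins, Gja5 gave 37.2% (36.3% to 38.1%) of UMIs in old and 43.2% (42.3% to 44.2%) in young EC-like cells, and nearly all the rest came from Gja4. Their summed level was 729 CPM in old and 1013 CPM in young.

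To compare cells of equal depth, each EC-like cell was thinned to 3100 UMIs, which left out 563 shallower cells of the old and 105 of the young library. Sox18 then had a UMI in 15.5% (13.9% to 17.3%) of 1867 old cells and in 46.8% (43.7% to 49.98%) of 991 young cells, against 26.9% of old and 71.6% of young cells without thinning. Cells with 3 or more Sox18 UMIs made up 0.214% of old and 5.45% of young cells. In fibroblast-like cells at the same depth, which should lack the gene, the share was 2.11% in old (473 cells) and 2.69% in young (223 cells). Gja5 had a UMI in 54.2% (51.9% to 56.4%) of old and 68.2% (65.2% to 71.1%) of young cells, against 68.1% of old and 87.1% of young cells unthinned. Fibroblast-like cells showed it in 6.77% in old and 5.38% in young.

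The remaining genes differed less at equal depth. Sox17 was seen in 45.3% (43.0% to 47.6%) of old and 52.3% (49.1% to 55.4%) of young cells. Sox7 was seen in 19.5% (17.7% to 21.4%) of old and 23.3% (20.7% to 26.1%) of young cells, so its intervals overlapped. Gja4 was seen in 69.1% (67.0% to 71.2%) of old and 73.8% (70.9% to 76.5%) of young cells, and these intervals overlapped as well. Bmx was seen in 74.4% (72.4% to 76.4%) of old and 80.2% (77.6% to 82.7%) of young cells. Unthinned, the shares were 60.7% and 75.5% for Sox17, 31.4% and 47.5% for Sox7, 79.1% and 87.6% for Gja4, and 84.7% and 92.0% for Bmx, in old and young cells. In thinned fibroblast-like cells the shares of these 4 genes ran from 2.75% (Sox7) to 12.1% (Gja4) in old and from 1.35% (Sox7) to 8.97% (Gja4) in young.

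**Figure D3:**
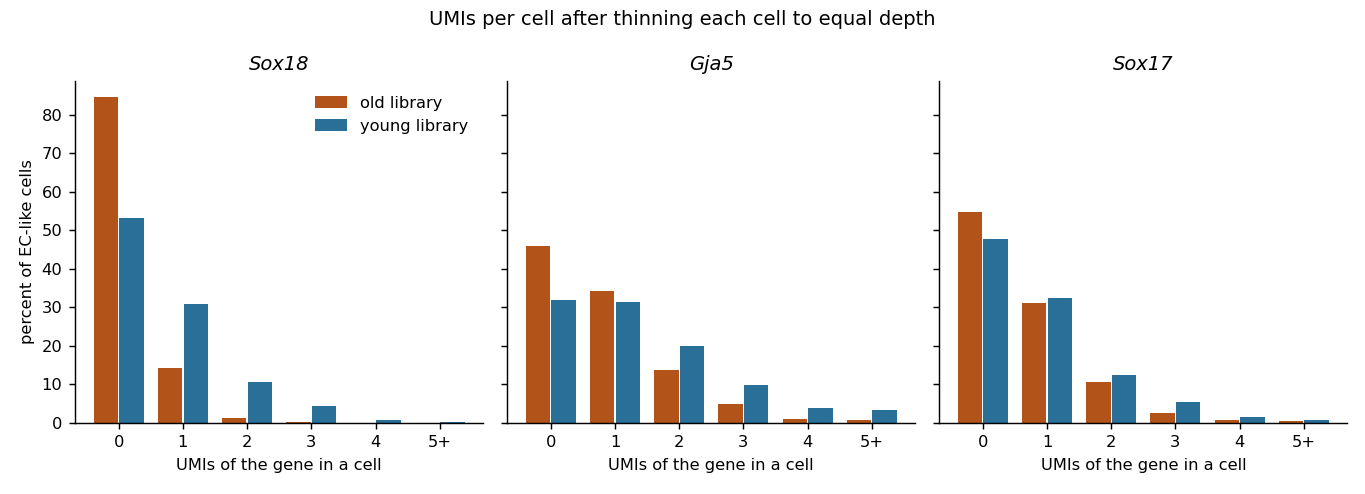
Percent of EC-like cells (vertical axis) with 0, 1, 2, 3, 4 and 5 or more UMIs of Sox18, Gja5 and Sox17 after each cell was thinned to 3100 UMIs, old (orange) left of young (blue). Cells without a Sox18 UMI make up 84.5% of old and 53.2% of young cells, and for Gja5 45.8% of old and 31.8% of young cells.

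The lower Sox18 level was spread over cells of all depths. When EC-like cells of each library were split into 4 bins of equal size by total UMIs, Sox18 lay between 43.8 and 63.1 CPM in the old bins and between 210 and 231 CPM in the young ones. Gja5 lay between 254 and 290 CPM in the old bins and between 421 and 507 CPM in the young ones, so neither gene's bins overlapped between ages. For Sox17 the shallowest bin held 218 CPM (195 to 244) in old and 241 CPM (210 to 274) in young, and the deepest 184 CPM (174 to 195) in old and 290 CPM (276 to 306) in young. The gap between ages in Sox17 was thus wider in the deepest bins than in the shallowest. Gja4 did likewise, with 459 CPM in old and 488 CPM in young in the shallowest bins, and 465 CPM in old and 607 CPM in young in the deepest. Bins were not matched in depth: the shallowest ran from 1541 to 3187 UMIs in old and from 2287 to 4775 in young. The deepest began at 8084 UMIs in old and 12327 in young. Median UMIs were also higher in Coch-marked than in Bcan-marked cells, 8846 against 6547 in young and 5950.5 against 4813 in old. The part of depth and subtype mix in these gaps was not tested.

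**Figure D4:**
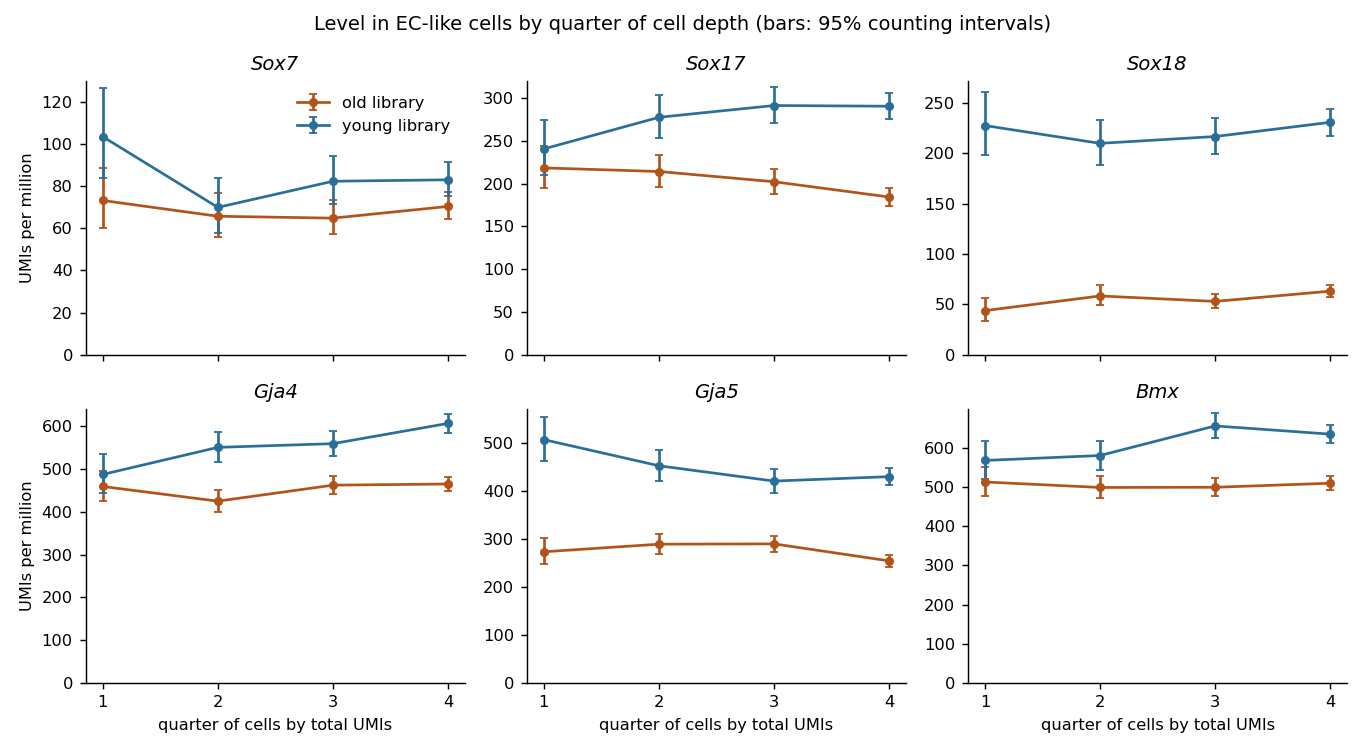
CPM of 6 genes (vertical axes from 0) in EC-like cells, in 4 bins of cells from fewest to most total UMIs, in the old (orange) and young (blue) library, with 95% counting intervals. The old Sox18 line stays between 43.8 and 63.1 CPM and the young one between 210 and 231 CPM.

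Within cells the genes were seen together about as often as their single shares give. Over the 15 pairs without Gja1 at equal depth, the share of EC-like cells with both genes, divided by the product of the single shares, ran from 0.965 to 1.03 in old (1867 cells) and from 0.969 to 1.08 in young (991 cells). Within subtypes this quotient ranged more widely, from 0.859 to 1.10 in old and from 0.934 to 1.10 in young Coch-marked cells. In Bcan-marked cells it ran from 0.932 to 1.06 in old and from 0.953 to 1.20 in young. Pearson's r of UMIs over all EC-like cells ran from -0.05 to 0.04 in old and from -0.04 to 0.08 in young. Within subtypes r lay between -0.11 and 0.11. In sparse counts such values are not read as a relation. Of the 7 genes, the median thinned cell showed 3 in both libraries. Exactly 4 genes were seen in 20.1% of old and 31.5% of young cells, and 5 in 4.18% of old and 14.0% of young cells.

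The wider families gave few counts. Of 20 other connexins and pannexins, 2 had enough UMIs in EC-like cells to compare ages. Gjc1, the gene of connexin 45, stood at 40.1 CPM in old and 33.0 CPM in young, a log2 ratio of 0.28 (0.08 to 0.48). The other was Panx1, a pannexin gene, with 48 old and 29 young UMIs. Of 17 other Sox factors 5 had enough UMIs, of which 1 (Sox6, 68 old and 78 young UMIs) was at least 1.5-fold lower in old, with a log2 ratio of -0.72 (-1.21 to -0.23). Sox13, a SoxD factor, was the most counted, with 118 CPM in old and 118 CPM in young (log2 ratio -0.01, -0.11 to 0.10, an interval that held 0). Sox5, another SoxD factor, had a log2 ratio of 0.18 (-0.09 to 0.46) and Sox4 one of -0.29 (-0.69 to 0.11). Sox12 had 31 old and 20 young UMIs. The reads of Sox4 can overlap those of Gm26735 on the opposite strand. Of the 4 other Tec kinases 0 had enough UMIs, and together they stood at 1.03 CPM in old and 0.885 CPM in young.

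Between subtypes, of the 5 other Sox factors with enough UMIs, 1 (Sox6) was at least 1.5-fold higher in Coch-marked cells of each library. As much lower were 2, Sox4 among them. Of all tested genes 4.7% in old and 5.46% in young were as much higher, and 7.44% in old and 7.2% in young as much lower. Counts were low, with 117 old and 100 young Sox4 UMIs in all EC-like cells. Sox6 stood at 11.8 CPM in Coch-marked and 2.37 CPM in Bcan-marked old cells, and at 12.6 CPM in Coch-marked and 3.04 CPM in Bcan-marked young cells. Sox4 was the reverse, with 1.40 CPM in Coch-marked and 10.2 CPM in Bcan-marked old cells, and 3.87 CPM in Coch-marked and 15.4 CPM in Bcan-marked young cells.

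Of 34 other genes used to mark arterial endothelium, 32 had enough UMIs in EC-like cells. In old cells 1 (Alox12) was at least 1.5-fold higher and 4 (Mecom and the 3 lowest) were at least 1.5-fold lower, with a median log2 ratio of -0.11. Of all tested genes 9.21% were as much higher and 7.18% as much lower, shares that also stand beside the counts of the lists that follow. The lowest were Fbln5, an elastic fibre protein gene (-1.39, -1.42 to -1.35), the Notch target Hes1 (-1.18, -1.29 to -1.08) and Edn1, which encodes endothelin 1 (-1.12, -1.19 to -1.04). The highest with at least 100 UMIs were the Notch ligand gene Dll4 (0.58, 0.36 to 0.81), the semaphorin gene Sema3g (0.47, 0.32 to 0.63) and Vegfc (0.20, 0.01 to 0.39). Of 10 genes known as direct or proposed targets of SoxF factors, all 10 had enough UMIs. Among them Robo4, 1 gene, was at least 1.5-fold lower in old, on 28 old and 48 young UMIs, 0 were as much higher, and the median log2 ratio of the 10 was 0.02. Of 9 genes for junction scaffolds and connexin partners, 1 was at least 1.5-fold lower in old (Cav2, 278 CPM in old and 492 CPM in young) and the median was -0.03. Of 8 venous genes 6 had enough UMIs, with 1 higher (Slco2a1, a prostaglandin transporter gene, 511 CPM in old and 339 CPM in young) and 1 lower by that measure (Ackr1, 10 old and 12 young UMIs) and a median near 0. The interval of Ackr1 held 0 (log2 ratio -0.78, -2.15 to 0.56). Slco2a1, Ackr1, Cav2, which encodes a caveolin, and Robo4 were named, like Panx1 and Sox12, after their values were seen.

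Across 10 groups (classes or subtypes in a library, each with at least 20 cells), the genes whose log2(CPM + 1) followed each of the 7 most closely were found among 10306 genes. Pearson's r is given as a description, since groups of 1 library share its depth and free RNA. Several of the 7 genes have 0 UMIs in small groups such as the 29 old B-like and 39 old erythroid-like cells, and such zeros weigh on r. For Sox18 the nearest were Taok2, Tob1 and Ppp3ca (r 0.989, 0.976 and 0.964). For Gja5 they were Amigo2, Clec14a and Fam107a (r 0.995, 0.994 and 0.993), and for Gja4 Id1, Nxn and Nuak1 (r 0.991, 0.987 and 0.985). For Sox17 they were Adh7, Klk10 and Bcam (r 0.996, 0.992 and 0.991). Bmx lay nearest to Nos3, the gene of endothelial nitric oxide synthase, Vwf, the gene of von Willebrand factor, and Tm4sf1 (r 0.996, 0.994 and 0.992), and reads of Nos3 can overlap those of Atg9b on the opposite strand. Sox7 lay nearest to Serpinb6b, Pdlim3 and Sema3f (r 0.995, 0.993 and 0.991), where 5.47% of the 3′ stretches of Serpinb6b are shared with its relatives. Gja1 lay nearest to Ifi205, Ank2 and Scn7a (r 0.999, 0.991 and 0.989), but 39.6% of the 3′ stretches of Ifi205 are shared with Ifi211 and Mndal.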

How the data were processed

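UMI counts per gene and cell were deposited by the authors for 1 old and 1 young library, from the 10x Genomics 3′ v2 kit. Cell Ranger and GRCm38 are named per the submitters' processing notes. Version and annotation: not given in the sources used here. Members and lists were chosen with earlier results of these data known, and the early response list after seeing the data.

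Barcodes under 200 detected genes or over 10% mitochondrial UMIs were dropped (72 old and 1 young), and so were 6 old and 6 young Scrublet doublet calls (0.180% and 0.440%), too few to count as a working doublet filter. Both libraries were clustered together with Scanpy 1.11.5 (Python 3.11.15; 2000 variable genes without the 7 members, 30 components, 15 neighbours, Leiden resolution 0.5). A cluster was named for the class whose markers had the highest mean detection in it, given at least 3 markers detected in 25% of its cells. A cluster got no name if its 10 leading genes held more markers of a different class than of its own. An EC-like cluster took the subtype whose 3 marker genes had the larger mean detection in it, if that was at least 25%.

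UMIs were summed per group and library. Ratios of CPM were taken with exact binomial intervals, levels with exact Poisson and shares with Clopper-Pearson intervals (95%, SciPy 1.17.1), which cover counting error only. Genes with at least 20 UMIs in both groups together were compared, and a change of at least 1.5-fold was called past the fold; no p-value was computed. Independent Poisson counts were simulated for the comparison of old and young EC-like cells (12096 genes, 200 changed). The interval held the true ratio for 95.7% of genes. The interval is exact for such counts, so this checks the code only, and spread between cells or animals was not simulated.

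Named beside the 7 genes were other Sox, connexin and Tec genes with at least 100 UMIs, the 3 highest and 3 lowest other arterial genes, and the 3 genes most alike each member. edgeR 4.0.16 gave TMM factors only. Other filters, clustering, scaling, depth and fold settings were tried. The 11 barcodes found in both libraries were left out in 1 alternative.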

Additional observations from a re-analysis of the deposited data

How the results depend on the processing

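No paired analysis was possible because each age is 1 library; for the same reason no replicate could be left out. Values under the alternatives were set beside the main ones. For ratios in all EC-like cells, counts of genes and shares, 222 stayed within their interval or within 1.5 times the count, and 37 moved. For the ratios within and between subtypes, 268 stayed within their interval and 32 moved. Of the ratios past 1.5-fold, 0 changed sign. Smaller ratios with intervals clear of 0 did: over the alternatives, old over young in Bcan-marked cells ran from -0.20 to 1.42 for Sox17, from -0.20 to 0.17 for Gja4 and from -0.28 to 0.22 for Bmx, in Coch-marked cells from -0.23 to 0.05 for Bmx, and Coch-marked over Bcan-marked young cells from -0.22 to 0.28 for Gja5. In EC-like cells the log2 ratio, old over young, ran from -2.03 to -1.87 for Sox18 and from -0.34 to -0.18 for Sox7 over 15 alternatives. With the stricter cell filter, which left 468 young EC-like cells, it was -0.91 for Sox17, -0.48 for Gja4, -0.61 for Gja5 and -0.50 for Bmx. With that filter and the unnamed endothelial cluster kept, an alternative added after seeing the data, all 6 ratios stayed within their intervals. Scaling to endothelial markers, also added, gave -0.43 for Sox17, -0.24 for Gja4, -0.60 for Gja5 and -0.22 for Bmx. TMM scaling, which shifted all ratios by -0.06, gave -0.39 for Gja4, -0.75 for Gja5 and -0.37 for Bmx, and median-of-ratios scaling, a shift of -0.07, gave -0.40, -0.76 and -0.37. Weighting each cell equally gave -0.42 for Sox17, and cells thinned to equal depth, added after seeing the data, gave -0.35 for Sox17 and -0.24 for Gja4.

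With a fold of 2, 1 gene was lower in old in EC-like, in Coch-marked and in Bcan-marked cells, and 0 were higher in Coch-marked over Bcan-marked cells of either library. The marker rule per cell gave 1 gene higher in old EC-like cells (Gja1) and 0 higher in Coch-marked over Bcan-marked old cells. Leaving out the 5% of cells with most UMIs gave 1 gene lower in old Bcan-marked cells and 2 genes higher in Coch-marked over Bcan-marked young cells. The stricter filter gave 1 gene higher in old Bcan-marked cells and 3 genes higher in Coch-marked over Bcan-marked young cells. The share of all genes past the fold in either direction was 16.4%, against 10.1% with at least 100 UMIs, 29.5% with no filter on low counts and 7.29% with a fold of 2.

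Without thinning, the old minus young difference in the share of cells with a UMI was -16.1 points for Sox7, -14.9 for Sox17, -44.7 for Sox18, -8.54 for Gja4 and -19.1 for Gja5, against -3.81, -6.96, -31.3, -4.62 and -14.1 points at 3100 UMIs. Thinned to 2000 UMIs it was -24.7 points for Sox18. The causes were not tested. Gja1 was left out of these shares, with 12 old and 3 young UMIs in EC-like cells.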

Other observations

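Outside endothelial and fibroblast-like cells, Gja4 had 32 UMIs in 12 of the 39 old erythroid-like cells (186 CPM, 128 to 263). That is 40.8% (27.9% to 57.6%) of its EC-like level. The 11 endothelial markers stood at 13.7% to 28.1% of their EC-like levels in those cells. The highest of them was Cdh5, whose interval (16.6% to 44.5%) overlapped that of Gja4. The 11 young monocyte or macrophage-like cells held 17 UMIs of Sox18 in 4 cells and 46 UMIs each of Gja4 and Bmx. The 7 old lymphatic endothelial-like cells held 4 UMIs of Gja1 in 2 cells. Among arterial genes outside the naming rule and chosen after their values were seen, Mecom, a zinc finger transcription factor gene, stood at 143 CPM in old and 219 CPM in young EC-like cells, and Alox12 had 26 UMIs in old and 2 UMIs in young. The 10% of EC-like cells with most Sox18 UMIs held 51.0% of them in old and 34.6% in young, a measure that moves with the level. For Sox7 the same measure was 47.7% in old and 38.5% in young. At 3100 UMIs per cell, the variance of Sox18 UMIs divided by their mean was 1.04 in old and 1.23 in young EC-like cells.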
